A study of Homo sapiens with 7 samples.

Results

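Bone morphogenetic protein (BMP) signaling was followed through 10 genes in human embryonic stem cells (hESCs). Some of the cultures expressed an active enzyme that removes a repressive histone mark, which these RNA libraries do not measure. The 10 genes were taken by name from the 22670 entries listed for each library, and each name had 1 entry. They comprised 3 ligands (BMP2, BMP4 and BMP7), 4 receptors (BMPR1A, BMPR1B, BMPR2 and ACVR1) and 3 secreted antagonists (CHRD, NOG and FST). BMP ligands are secreted dimers of the TGFβ superfamily that assemble type I receptors (BMPR1A, BMPR1B, ACVR1) with type II receptors such as BMPR2. The assembled receptor complex then activates SMAD1, SMAD5 and SMAD9. Chordin (CHRD) and noggin (NOG) bind BMPs outside the cell and keep them from their receptors, whereas follistatin (FST) binds activins most tightly and some BMPs as well. In the embryo a balance of BMPs and these antagonists patterns the early axes, and in cultured hESCs added BMP4 is widely used to drive differentiation.

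The cells were the SEES-3 line of hESCs, kept without feeder cells in pluripotency medium. JMJD3 (KDM6B) removes methyl groups from lysine 27 of histone H3, a mark of silenced developmental genes, and JMJD3c is its C-terminal catalytic part with an HA tag and a nuclear localization signal. Both lines carried a reverse Tet transactivator and a puromycin-selected piggyBac transgene that expressed either JMJD3c (JMJD3c-hESCs) or a point mutant without catalytic activity (JMJD3c mut-hESCs) from a Tet-responsive promoter. Doxycycline (Dox), given at 1 µg/ml, switched the transgene on. JMJD3c-hESCs were collected before Dox (Day 0) and on Days 1, 2, 3 and 4 of treatment, and the mutant line was collected untreated and on Day 4 of treatment. The mutant line was made separately, so a difference between the lines and a difference between the constructs cannot be told apart.

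Poly(A) RNA of each of the 7 conditions was sequenced in 1 library, so no difference below has a replicate check and none was tested. Levels are in FPKM, fragments per kilobase of transcript scaled to the mapped reads of the library, which is a level per length and allows genes to be compared. Cufflinks gave each FPKM a 95% interval, which covers uncertainty within a single library and leaves out differences among cultures. The whole-read steps of low FPKM values placed the depth of the libraries between 1775000 and 3655000 reads, with Day 0 the shallowest. If these steps stood for 2 reads each, every read number below would double and the counting intervals would narrow. Following the cutoffs of the study, a gene was called higher at a ratio above 2 and lower at a ratio below 0.5, each with more than 4 FPKM in the higher library. Differences on the log2 scale are of FPKM + 1 and understate the change of low genes. KDM6B, whose reads include the transgene, measured 3.45 FPKM at Day 0 and 158, 212, 248 and 282 FPKM at Days 1 to 4, and went from 2.40 to 454 FPKM with Dox in the mutant line. All 7 pluripotency markers examined exceeded 4 FPKM in every library. They summed to 1854 to 2295 FPKM in the 3 libraries without active JMJD3c and 1618 to 1992 FPKM in the 4 with it. Of the 7, 4 (NANOG, DNMT3B, LIN28A and ZFP42) were lower in each of the 4 than in each of the 3. The same held for 4.48% of all genes and 6.34% of those above 1 FPKM in some library. Between Day 0 and Day 4, DNMT3B went from 404 to 191 FPKM and SOX2 from 136 to 65.9 FPKM. With Dox in the mutant line, DNMT3B went from 369 to 308 FPKM and SOX2 from 99.6 to 74.6 FPKM. In bulk RNA, fewer expressing cells and less RNA per cell cannot be told apart.

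CHRD, FST and BMP2 were called higher at Day 4 of JMJD3c, by ratios of 71.7, 6.50 and 6.45, and none of the 3 was called in the mutant line with Dox. BMP4, BMP7, BMPR1A, BMPR2 and ACVR1 were not called against Day 0 on any day, at Day 4 ratios between 0.730 and 1.25. Of the 8 members that exceeded 4 FPKM in either library, 3 were called higher and 0 lower, where 5.87% of all 10247 such genes were called higher and 7.56% lower. The median log2 difference at Day 4 was 0.27 over the 10 members and 0.00 over all genes on chromosomes, and with the untreated mutant line in place of Day 0 it was 0.58 over the members and 0.00 over all genes. BMPR1B, at 1.91 FPKM and 5.84 times Day 0, and NOG, at 0.243 FPKM, did not reach the level needed for a call.

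The promoters of CHRD and FST are shown because both antagonists were called higher from Day 2 on, and because the mark that JMJD3 removes is typically found at CpG-rich promoters. Each window holds the bases upstream of the RefSeq transcription start, matched to hg19 on the plus strand and written 5′ to 3′ with CG dinucleotides in capitals. The CHRD window is chr3:184097592-184097841, 250 bases that end upstream of the deposited gene (chromosome 3, 184097861 to 184107617, ENSG00000090539). The FST window is chr5:52776209-52776455, from which 3 bases inside the exon were trimmed, and the deposited gene (chromosome 5, 52776239 to 52782964, ENSG00000134363) begins inside it, as the annotation behind the files starts the transcript further upstream.
CHRD: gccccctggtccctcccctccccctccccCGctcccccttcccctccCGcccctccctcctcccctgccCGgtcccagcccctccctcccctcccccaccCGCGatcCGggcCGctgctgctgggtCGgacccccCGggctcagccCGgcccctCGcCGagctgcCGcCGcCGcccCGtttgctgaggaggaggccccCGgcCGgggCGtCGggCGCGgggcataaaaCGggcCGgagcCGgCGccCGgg
FST: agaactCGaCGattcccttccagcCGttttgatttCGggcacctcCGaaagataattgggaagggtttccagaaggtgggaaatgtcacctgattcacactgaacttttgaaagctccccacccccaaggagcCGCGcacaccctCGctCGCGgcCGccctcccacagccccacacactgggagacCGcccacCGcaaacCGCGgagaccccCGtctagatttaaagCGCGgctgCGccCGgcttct

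CHRD had 27 CG dinucleotides in the 250 bases before its start and FST had 20, against a median of 11 over 35116 RefSeq promoter windows of the same length (GRCh38.p14). As many or more were found in 17.7% of all windows for CHRD and in 32.4% for FST. Windows of the receptors, none of which was called against Day 0, held from 2 to 36 CG dinucleotides. BMPR2, which was lower in all 4 induced libraries, had 36 (4.9% of windows have as many), and the 3 windows of ACVR1 had 30, 8 and 3. The 3 windows of BMP4 had 25, 17 and 27, BMPR1A had 9, and the 3 of BMPR1B had 24, 2 and 7. BMP2, BMP7 and NOG had no entry in the RefSeq table used. On either strand, TCACAC was present in FST and in no other member, and in 9.9% of all windows. GGCGCC, which includes a counted CG, was present in CHRD, BMPR2, 1 window of BMP4 and 1 of ACVR1, and in 16.4% of all windows. GTCTAGAC was found in none of the members' windows and in 0.2% of all. A match of letters is a description and not a binding site.

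**Figure D1:**
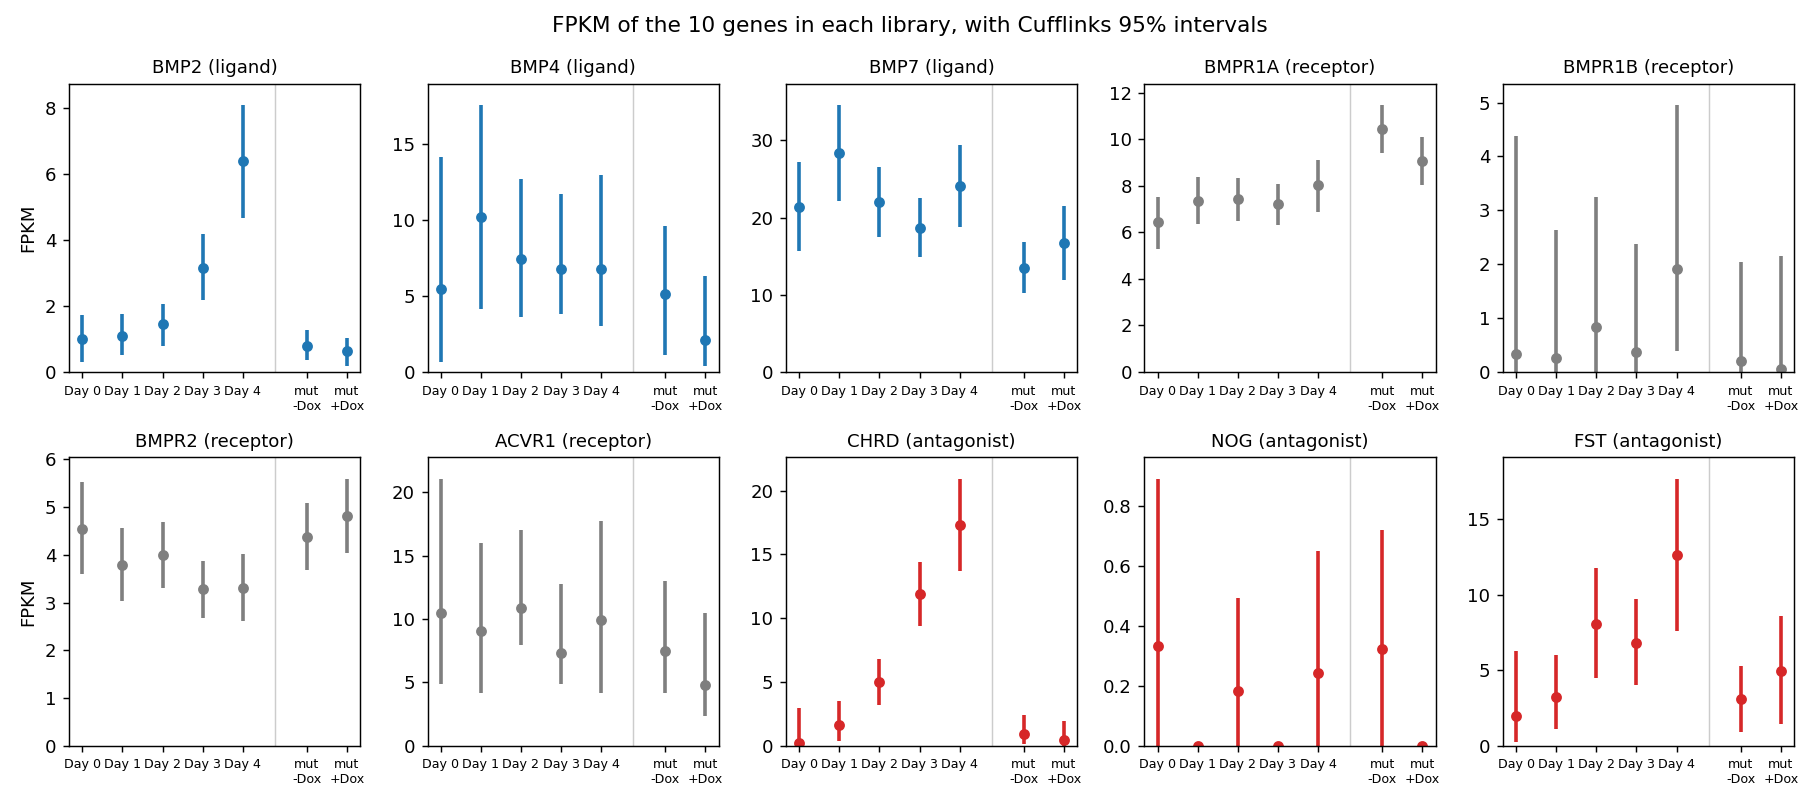
FPKM (y axes, linear, each from 0) of the 10 genes in the 7 libraries (x axes), with points for the value and bars for the Cufflinks 95% interval within 1 library. CHRD climbed from 0.241 at Day 0 to 17.3 FPKM at Day 4 and BMP2 from 0.992 to 6.40 FPKM. Over the 7 libraries, BMP7 ranged from 13.5 to 28.4 FPKM, BMPR1A from 6.43 to 10.4 FPKM and ACVR1 from 4.82 to 10.9 FPKM.

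Among the ligands, BMP2 changed late. BMP2 (ENSG00000125845, chromosome 20, 6748311 to 6760927) encodes a ligand that acts in mesoderm, heart and bone. It measured 0.992, 1.10, 1.46, 3.16 and 6.40 FPKM at Days 0 to 4, and 0.802 and 0.642 FPKM in the mutant line without and with Dox. All 4 induced libraries were above the other 3, although Days 1 and 2 exceeded Day 0 by less than the width of their intervals. The intervals separated from Day 0 at Day 3 (2.18 to 4.20 against 0.312 to 1.72 FPKM), and Day 4 (4.67 to 8.09 FPKM) in turn lay above Day 3. Day 3 was 3.19 times Day 0 but, at 3.16 FPKM, was under the cutoff of 4 FPKM. The log2 difference at Day 4 was 1.89, with about 52 reads against 6. From these reads the exact 95% counting interval of the ratio of 6.45 was 2.72 to 18.0, which, like the others given here, covers counting error only.

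BMP4 differed from BMP2 in its time course. BMP4 (ENSG00000125378, chromosome 14, 54416454 to 54425479), a ligand of early mesoderm, amnion and trophoblast, measured 5.48 FPKM at Day 0 and 10.2, 7.43, 6.76 and 6.75 FPKM at Days 1 to 4. In the mutant line it measured 5.16 FPKM without and 2.08 FPKM with Dox. The 4 induced libraries were all above the other 3, with the highest value at Day 1, but every one of their intervals overlapped that of Day 0 (0.656 to 14.2 FPKM). The ratio of Day 4 to Day 0 was 1.23 (counting interval 0.636 to 2.34). BMP4 was the 1 member called in the mutant line, lower with Dox at a ratio of 0.402, where 1.53% of all genes were called lower and 1.24% higher. Its Cufflinks intervals there overlapped (1.11 to 9.60 and 0.415 to 6.32 FPKM), while the counting interval of the ratio was 0.195 to 0.825. No member had intervals apart in the mutant line, where 3.14% of all genes did.

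BMP7 (ENSG00000101144, chromosome 20, 55743804 to 55841685), known for its part in kidney and eye development, was the most abundant of the 10 genes in every library. It measured 21.4, 28.4, 22.0, 18.7 and 24.1 FPKM at Days 0 to 4 and 13.5 and 16.7 FPKM in the mutant line without and with Dox. The induced libraries lay on both sides of Day 0, and the mutant line was below every library of the JMJD3c line. Day 4 exceeded the untreated mutant line with intervals apart (18.7 to 29.4 against 10.2 to 16.8 FPKM), but not Day 0 (15.6 to 27.1 FPKM). BMP7 made up 64.7% of the summed ligand FPKM at Day 4 and 86.0% in the mutant line with Dox, the lowest and highest of the 7 libraries. BMP2 made up 3.56% at Day 0 and 17.2% at Day 4.

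None of the 4 receptors was called between any library of the JMJD3c line and Day 0, and BMPR1B was under the level needed for a call in every library. BMPR1A (ENSG00000107779), a type I receptor broadly expressed in the early embryo, measured 6.43, 7.36, 7.43, 7.20 and 8.02 FPKM at Days 0 to 4. The mutant line had 10.4 FPKM without and 9.07 FPKM with Dox, more than any library of the JMJD3c line. Against Day 0, Day 4 was higher by 0.28 on the log2 scale, and against the untreated mutant line it was lower, at a log2 difference of -0.34, so the direction depended on the reference.

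BMPR2 (ENSG00000204217), the type II receptor, measured 4.54 FPKM at Day 0 and 3.80, 4.00, 3.28 and 3.32 FPKM at Days 1 to 4. The mutant line had 4.38 FPKM without and 4.82 FPKM with Dox. All 4 induced libraries were therefore below the other 3, by a small margin. The interval at Day 4 (2.62 to 4.01 FPKM) overlapped that at Day 0 (3.59 to 5.52 FPKM) and was below that of the mutant line with Dox (4.04 to 5.59 FPKM).

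ACVR1 (ENSG00000115170), the type I receptor also called ALK2, measured 10.4, 9.06, 10.9, 7.32 and 9.91 FPKM at Days 0 to 4 and 7.49 and 4.82 FPKM in the mutant line without and with Dox. Its intervals were wide (4.91 to 21.1 FPKM at Day 0) and overlapped in every comparison made. BMPR1B (ENSG00000138696), a type I receptor known from cartilage and limb, stayed under 2 FPKM, with 0.327, 0.254, 0.841, 0.372 and 1.91 FPKM at Days 0 to 4 and 0.203 and 0.0581 FPKM in the mutant line. Day 4 was the highest library, at about 25 reads against 3 at Day 0, and the ratio of 5.84 had a counting interval of 1.86 to 31.5. The Cufflinks intervals, which also carry the uncertainty of assigning reads to isoforms, overlapped (0.382 to 4.96 and 0 to 4.37 FPKM).

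Of the 3 antagonists, CHRD and FST were called higher from Day 2 on and NOG was barely detected. CHRD, whose product holds BMPs in an inactive complex until proteases cut it, measured 0.241 FPKM at Day 0 and 1.65, 4.98, 11.9 and 17.3 FPKM at Days 1 to 4. The mutant line had 0.935 FPKM without and 0.423 FPKM with Dox. The level rose at each step, as it did for BMP2 and for no other member, whereas 2.12% of all genes rose at every step. CHRD was called higher at Days 2, 3 and 4, each with its interval above that of Day 0 (0 to 2.95 FPKM). Day 3 (9.41 to 14.4 FPKM) also lay above Day 2 (3.19 to 6.81 FPKM), whereas Day 4 (13.7 to 20.9 FPKM) overlapped Day 3. At Day 0 the value corresponded to about 2 reads, under the level of 3 reads (0.374 FPKM), so the size of the fold is poorly known. The ratio of Day 4 to Day 0 was 71.7, with a counting interval of 18.9 to 577 from about 190 and 2 reads. Against the mutant line, which gave about 15 reads without Dox and 6 with it, the ratios were 18.5 (11.3 to 34.7) and 40.9 (18.8 to 115).

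FST rose with a less regular course. It measured 1.94, 3.24, 8.08, 6.83 and 12.6 FPKM at Days 0 to 4, and 3.10 and 4.98 FPKM in the mutant line without and with Dox. Days 2, 3 and 4 were above every library without active JMJD3c, but Day 1 was below the mutant line with Dox, so the groups overlapped. It was called higher at Days 2, 3 and 4 by ratios of 4.17, 3.52 and 6.50, and the intervals were apart from Day 0 at Day 4 (7.61 to 17.7 against 0.243 to 6.27 FPKM). The counting interval of the Day 4 ratio, from about 72 and 8 reads, was 3.16 to 15.8. In the mutant line the ratio with Dox was 1.61 (0.958 to 2.80), which was not called.

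NOG (ENSG00000183691, chromosome 17, 54671060 to 54672951), which acts in neural induction and in joint formation, was at the limit of detection throughout. It measured 0.333, 0, 0.184, 0 and 0.243 FPKM at Days 0 to 4 and 0.323 and 0 FPKM in the mutant line without and with Dox. These values correspond to about 1, 0, 1, 0 and 1 reads and to 2 and 0 reads, under the level of 3 reads in every library. No fold is given for NOG, and a change in it was not detectable at this depth.

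**Figure D2:**
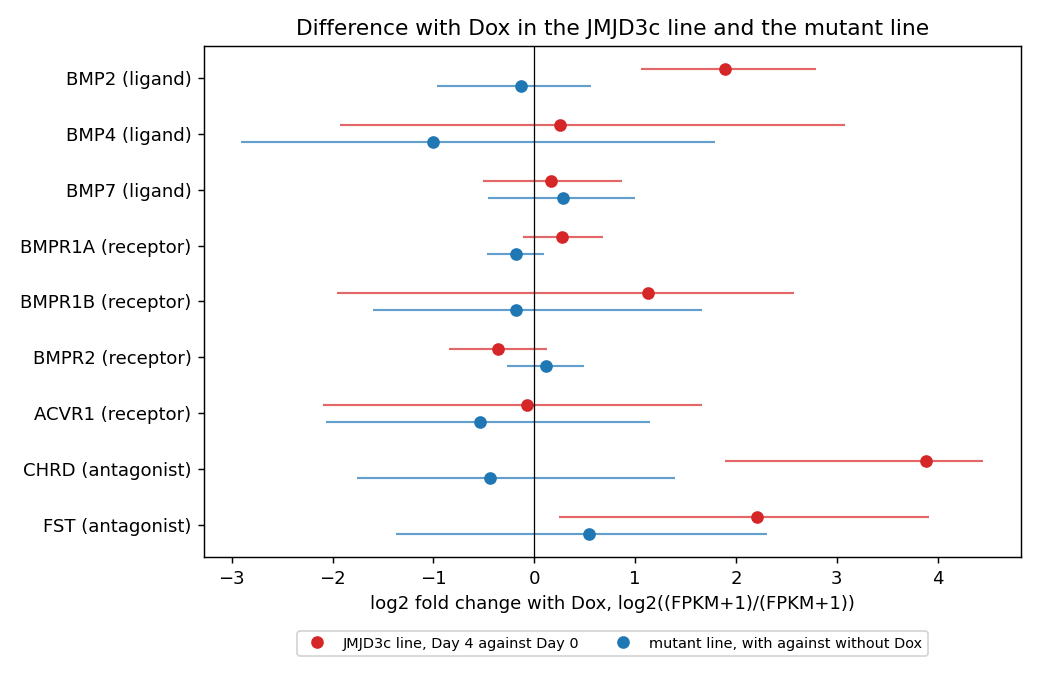
Log2 difference with Dox (x axis, log2 of FPKM + 1) for 9 of the genes in the JMJD3c line at Day 4 against Day 0 (red) and in the mutant line (blue), 1 library per condition, with bars spanning the differences that the Cufflinks 95% intervals of both libraries allow. NOG, with at most 2 reads in a library, is not drawn. BMP2, CHRD and FST lie at 1.89, 3.88 and 2.21 in the JMJD3c line with bars clear of 0, and every bar of the mutant line crosses 0.

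The comparisons of Days 1 to 4 share the Day 0 library, so their calls are not independent of each other. At Day 1, 0 of 5 members above 4 FPKM were called, where 3.48% of all genes were called higher and 3.27% lower. At Day 2 there were 2 of 7 called higher (CHRD and FST), against 3.90% of all genes higher and 4.24% lower. At Day 3 the same 2 genes of 7 were called higher, against 4.73% and 4.48%. BMP2 joined them at Day 4. No member was called lower on any day. By intervals apart, at any ratio, 0, 1, 1 and 3 of the members above 4 FPKM differed from Day 0 at Days 1 to 4, where 3.99%, 7.23%, 8.79% and 12.1% of all such genes did.

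The comparison of Day 4 with the mutant line at Day 4 of Dox asks how active JMJD3c differs from the inactive form at the same time of Dox, in lines made separately. Of 8 members above 4 FPKM, 5 were called higher and 0 lower, where 6.56% of all genes were called higher and 3.00% lower. They were CHRD, BMP2 (ratio 9.96, counting interval 4.43 to 25.5), BMP4 (3.25, 1.51 to 6.63), FST (2.53, 1.70 to 3.92) and ACVR1 (2.05, 1.50 to 2.87). Of the 5, only CHRD and BMP2 also had Cufflinks intervals apart. BMPR2, lower at Day 4 at a ratio of 0.688, had them apart too, as did 16.3% of all genes above 4 FPKM. BMP4 and ACVR1 had their lowest value in the mutant line with Dox, and neither was called against Day 0 or against the untreated mutant line. Against the untreated mutant line, 3 members were called higher (BMP2, CHRD and FST) and 0 lower, with 7.04% and 3.90% of all genes called. Intervals were apart for 5 members (those 3, BMP7 and BMPR1A), and for 18.6% of all genes.

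In all, 3 members (BMP2, BMP4 and CHRD) were higher in each of the 4 libraries with active JMJD3c than in each of the 3 without it, and 1 (BMPR2) was lower in each. Over all genes, 5.41% were higher in this way and 4.48% lower. Among genes above 1 FPKM in some library the shares were 7.36% and 6.34%. The other 6 members overlapped. Leaving out a library can only add genes to either side, for the members and for all genes. Without Day 0, BMP7 and BMPR1B joined the higher genes and BMPR1A the lower, while the shares over all genes were 13.4% and 11.2%. Without Day 1, BMPR1B and FST joined the higher genes (8.45% of all genes), and without Day 3, BMP7 did (6.37%). Without the mutant line with Dox, FST joined the higher genes (7.88%), and NOG was counted as lower on the strength of 0 to 2 reads in a library, which is no detectable change.

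Summed by role within the 10 genes, the antagonists approached the ligands. Pathway genes outside the 10 are not in these sums. Among them are the antagonist CER1, at 0 FPKM at Day 0 and 133.7 FPKM at Day 4, and the ligand GDF3, at 20.6 and 32.1 FPKM. The 3 antagonists together measured 2.51, 4.89, 13.3, 18.7 and 30.1 FPKM at Days 0 to 4, and 4.36 and 5.40 FPKM in the mutant line without and with Dox. The 3 ligands together measured 27.8, 39.7, 30.9, 28.6 and 37.2 FPKM at Days 0 to 4, and 19.5 and 19.4 FPKM in the mutant line. The 4 receptors together stayed between 18.2 and 23.1 FPKM in all 7 libraries. The antagonist sum was thus 0.0903 of the ligand sum at Day 0, 0.809 at Day 4, and 0.224 and 0.278 in the mutant line. These are levels of RNA, and sums of FPKM say nothing of secreted protein. CHRD made up 9.58% of the antagonist sum at Day 0 and 57.3% at Day 4, and FST 77.2% and 41.8%.

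**Figure D3:**
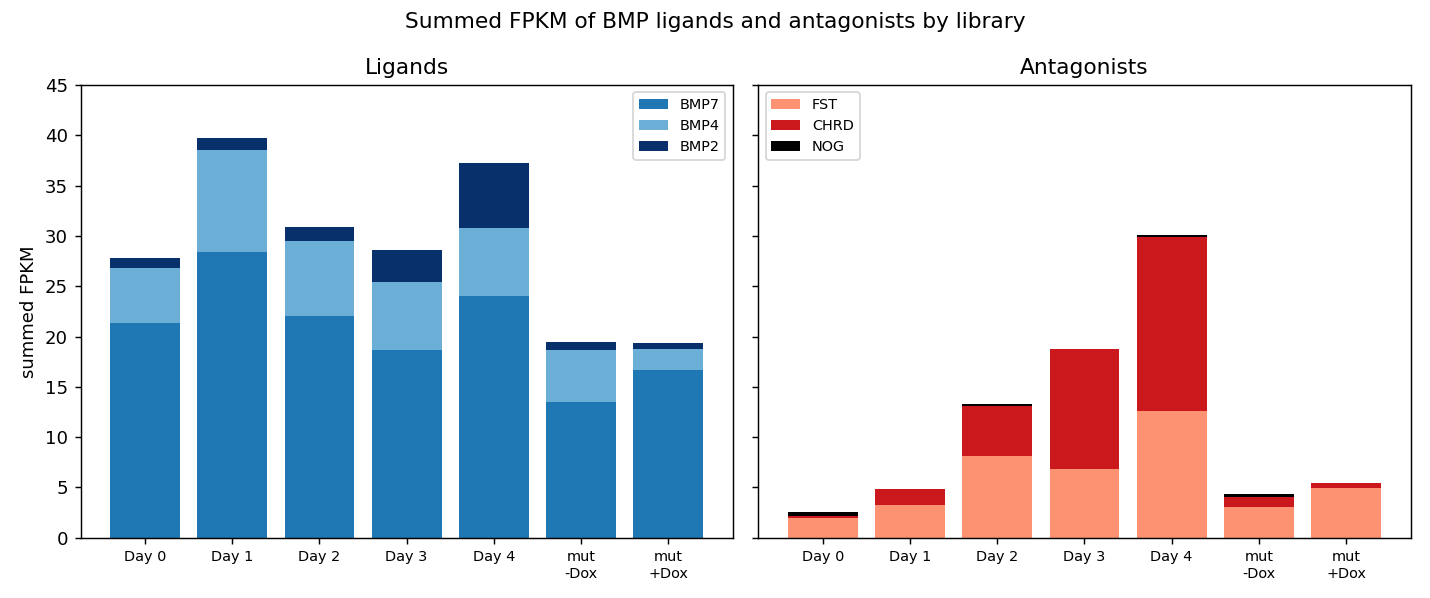
Summed FPKM (y axis, linear from 0, shared) of the 3 ligands (left) and the 3 antagonists (right) in each of the 7 libraries (x axis), with each bar divided by gene. The antagonists went from 2.51 to 30.1 FPKM between Day 0 and Day 4, mostly through CHRD and FST, and the ligands from 27.8 to 37.2 FPKM.

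At Day 0 the members ranked BMP7, ACVR1, BMPR1A, BMP4, BMPR2, FST, BMP2, NOG, BMPR1B and CHRD by FPKM. At Day 4 CHRD and FST stood directly behind BMP7, and BMP2 had moved past BMPR2. Neighbors in these orders had overlapping intervals, with the exception of BMP2 and BMPR2 at Day 4.

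Other genes of the pathway were read from a list of 51. All were listed, 25 exceeded 4 FPKM in some library, and 5 were at 0 in all. At Day 4 against Day 0, 5 of the 24 above 4 FPKM in either library were called higher and 0 lower, beside 5.87% and 7.56% of all such genes. CER1, a secreted antagonist of BMP and NODAL, was listed at 0 at Day 0 and measured 1.85, 34.0, 84.1 and 133.7 FPKM at Days 1 to 4, against 1.62 and 0.924 FPKM in the mutant line, and it was the 1 called gene among 14 other antagonists and modulators. The other 4 were among the 8 genes that respond to BMP signaling. ID3, an inhibitor of bHLH transcription factors, went from 49.9 to 143.6 FPKM, and ID4 from 1.31 to 5.94 FPKM. MSX1 was listed at 0 at Day 0 and measured 4.02 FPKM at Day 4, and MSX2 went from 1.35 to 4.63 FPKM with overlapping intervals. The deposited CER1 value at Day 4 lies outside its own interval (101.3 to 131.7 FPKM).

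The remaining 4 response genes were not called against Day 0 on any day. ID1 measured 65.2 FPKM at Day 0 and 58.0 FPKM at Day 4, with intervals apart from the 30.9 FPKM of the mutant line with Dox. ID2 measured 19.4 FPKM at Day 0, 28.9, 30.1 and 31.2 FPKM at Days 1 to 3 and 22.3 FPKM at Day 4. SMAD6 measured 4.21 and 3.41 FPKM, and SMAD7 17.9 and 14.3 FPKM, at Days 0 and 4. The 12 other ligands, 8 other receptors and co-receptors, 3 proteases and 6 transducers had 0 calls in either direction at Day 4. In the mutant line with Dox, 0 of the 19 genes of the list above 4 FPKM were called higher and 2 lower, beside 1.24% and 1.53% of all such genes. These were GDF3, a TGFβ superfamily ligand of pluripotent cells, at 22.6 and 11.1 FPKM with intervals apart, and CHRDL1, a chordin-like antagonist, at 7.80 and 3.87 FPKM with overlapping intervals. With Dox, ID3 in the mutant line also went from 52.3 to 86.8 FPKM, its intervals apart, a ratio of 1.66 that was under the cutoff.

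**Figure D4:**
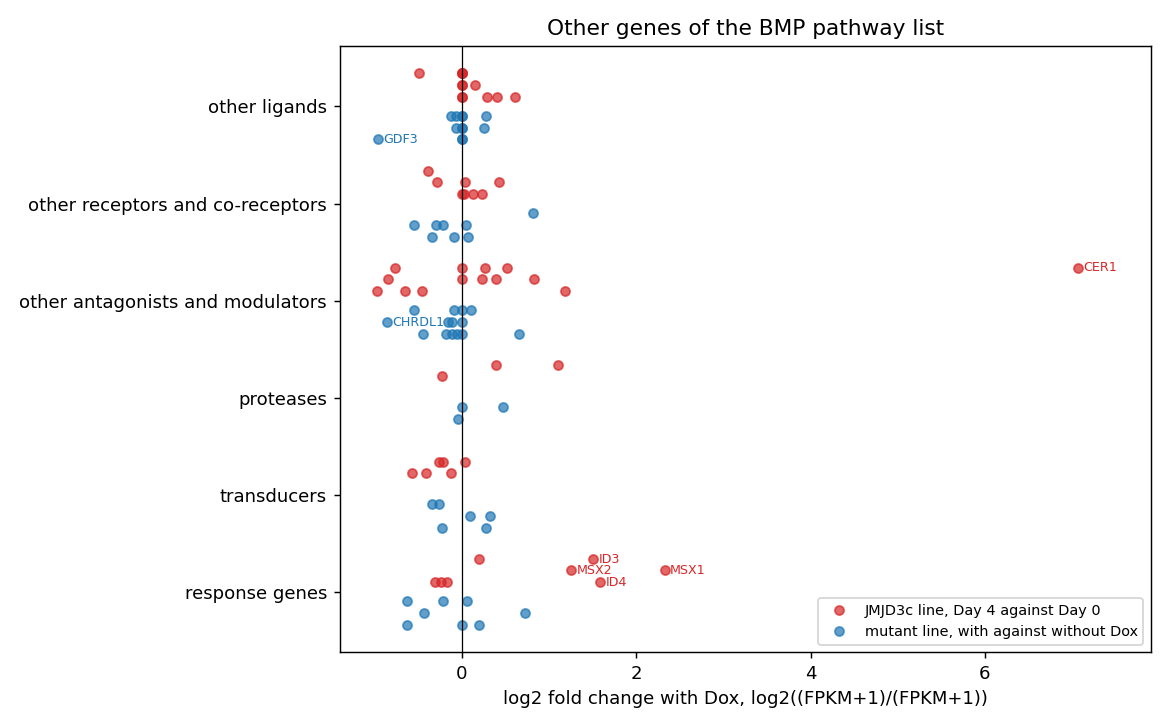
Log2 difference with Dox (x axis, log2 of FPKM + 1) for the 51 other genes of the pathway, grouped by role (y axis), in the JMJD3c line at Day 4 against Day 0 (red) and in the mutant line (blue), 1 point per gene and line. Names mark called genes. CER1 and 4 response genes (ID3, ID4, MSX1 and MSX2) are named to the right of 0, and GDF3 and CHRDL1 to the left in the mutant line.

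Mesoendoderm markers had their highest value at Day 4, as did CHRD, FST and BMP2, and the part of other cell types in these results was not tested. The 7 mesoendoderm markers summed to 5.49 to 9.32 FPKM in the 3 libraries without active JMJD3c and to 14.9, 59.7, 111 and 176 FPKM at Days 1 to 4. All 7 were higher at Day 4 than in any of the 3, a count for which no share over all genes was calculated. On each of Days 1 to 4, 4 of them were higher than in all 3. The same held for 5.41% of all genes and 7.36% of those above 1 FPKM in some library. SOX17 and GATA6 were at 0 at Day 1. The 5 neuroectoderm markers summed to 5.11 to 7.22 FPKM and 21.8 to 32.8 FPKM, with the highest sum at Day 1. The 7 trophoblast and amnion markers summed to 2.99 to 4.28 FPKM and 4.12 to 6.79 FPKM, which overlap. Of these, 3 were higher at Day 4 than in any library without active JMJD3c, a count again without a share over all genes. They were GATA3 (2.68 FPKM), TFAP2A (1.89 FPKM) and ISL1 (1.05 FPKM). KRT7 went the other way, from 3.98 FPKM at Day 0 to 1.06 FPKM at Day 4. CDX2 stayed under 1 FPKM, and CGA and HAND1 were at 0 throughout. Of the 5 fibroblast markers LUM and DCN were at 0 in every library, and the sum, carried by THY1 and collagens, ranged from 92.7 to 149 FPKM and from 120 to 166 FPKM, which also overlap.

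Genes with the most similar course over the 7 libraries were listed for the 6 members that exceeded 4 FPKM and spanned at least 1 on the log2 scale, by Pearson's r of log2(FPKM + 1) among 3234 genes. These are descriptions, since 5 of the 7 libraries form 1 time course. For CHRD they were GATA4 (0.997), LZTS1 (0.995) and GSC (0.992). GATA4 is an endoderm and heart factor and GSC an organizer homeobox gene. For BMP2 they were COL2A1 (0.992), CDK2AP2 (0.985) and FLI1 (0.980), and for FST EPHA4 (0.985), SULF2 (0.983) and ODF2L (0.978). MCF2L, CACFD1 and CFLAR were nearest to BMP4, with 0.983, 0.973 and 0.963. KIFC3, APOO and SPINK5 were nearest to BMP7 and OPA3, PTCH1 and MTFMT to ACVR1, with r between 0.958 and 0.990. Among the members themselves, CHRD and BMP2 had r of 0.928, CHRD and FST 0.870, and BMP2 and FST 0.787.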

How the data were processed

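RNA-seq values of 7 libraries, 1 per condition, were analysed. The authors mapped single-end MiSeq reads from a poly(A), directional library to hg19 with TopHat2 2.0.13, estimated FPKM per gene with Cufflinks 2.1.1, and deposited the FPKM with its 95% interval (base calling named as CASAVA 1.4 in the submitters' processing notes). The annotation release is not given in the sources used here. Of the entries of a library, 20187 lie on chromosomes. 35 entries were marked as having too little data and 1 as failed, none a member.

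From the FPKM, ratios, log2 differences with a pseudocount of 1, and role sums were calculated with pandas 2.3.3, numpy 2.4.6 and scipy 1.17.1 under Python 3.11.15, plotted with matplotlib 3.10.9, and the code for calls and depth was tested on simulated data, which says nothing of differences between cultures. Depth was estimated from single-exon, single-transcript genes, of which 81.0% to 86.7% of low values came within 0.1 of a whole read and 4.7% to 9.9% within 0.1 of the midpoint between 2 reads, where uneven numbers would fall if each step were 2 reads. Reads per gene use the longest GENCODE transcript (release 44 on GRCh37) less 200 bases and are approximate, most of all for genes with several isoforms. Ratios of these reads, rounded, have exact Clopper-Pearson intervals.

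The members and lists were chosen with earlier results of these data known. All 10 members are named. Of the 51 other pathway genes, those called at Day 4 or in the mutant line are named, and the other response genes were added after their values were seen. The rule that picks the depth from the spacing of steps, the promoter motifs, the role sums, the count of genes that rose at every step, the ranks, the counting intervals and the comparison with the untreated mutant line were also chosen after the data were seen. Alternatives changed the FPKM cutoff, the use of intervals, the scaling, the pseudocount, the entry of a name, the reference and the libraries included. Promoter windows came from RefSeq (GRCh38.p14) and 7 of the 10 members matched.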

Additional observations from a re-analysis of the deposited data

Results flagged for a closer look

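For 5 of the 10 genes, Days 1 to 4 of Dox all lay on 1 side of Day 0 in the JMJD3c line while the Dox-treated mutant library lay on the other side of its untreated library. The same held for 17.3% of all genes, and for 23.6% of those above 1 FPKM in some library. With 1 library per condition the difference between the lines was not tested. On the log2 scale of FPKM + 1, CHRD differed from its untreated library by 3.88 at Day 4 and by -0.44 in the mutant line. For BMP2 the differences were 1.89 and -0.13. For BMP4 they were 0.2581 and -1.0032, and for BMPR1A 0.28 and -0.18. BMPR2 had the opposite signs, with -0.36 at Day 4 and 0.11 in the mutant line. Of these values, CHRD and BMP2 at Day 4 were called with intervals apart, BMP4 in the mutant line was called with intervals that overlap, and the others were not called. None of the 5 was called in both lines.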

How the results depend on the processing

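With 1 library per condition and as few as 1775000 reads, folds of members under 4 FPKM rest on few reads. No paired analysis was possible because each condition has 1 library. No direction of a called value changed under any alternative run. With a cutoff of 1 FPKM, 1 member (CHRD) was called higher at Day 1 in place of 0. With upper quartile scaling, 1 member was also called higher at Day 1 in place of 0. That member was BMP4, whose unscaled ratio of 1.86 lay just under the cutoff. Requiring intervals apart left 1 member (CHRD) called higher at Day 2 and 1 at Day 3 in place of 2 each, 0 called lower in the mutant line in place of 1, and 2 called higher at Day 4 against the mutant line with Dox in place of 5. Of the pathway list, 1 gene was called lower at Day 4 with a cutoff of 1 FPKM and 2 with the untreated mutant line as reference, in place of 0. Leaving out each library in turn gave 3 to 5 members higher and 1 to 2 lower in all libraries with active JMJD3c, as named above, while the shares over all genes were 6.37% to 13.4% and 5.53% to 11.2%. The members' median log2 difference at Day 4 was 0.58 with the untreated mutant line as reference, in place of 0.27. With reads doubled, an alternative added after the data were seen, the counting interval of the Day 4 ratio was 26.8 to 255 for CHRD, 3.47 to 12.6 for BMP2 and 3.88 to 11.7 for FST. The log2 difference at Day 4 was 1.06 for BMP2 with a pseudocount of 4 and 5.67 for CHRD with 0.1, in place of 1.89 and 3.88. Of the counts and medians recomputed, 93 stayed close (counts and the members' median within 1.5 times, the median of all genes within 0.1) and 13, printed here, did not. The cause of these shifts was not tested beyond the construction of each alternative.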
